A study of Mus musculus with 6 samples.

Results

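The S100 genes were examined in RNA sequencing of whole skin from 3 mice labelled JunB dep, called JunBΔep here, and 3 littermate controls labelled JunB +/+. Members were taken by gene symbol, and all 10 symbols (S100a1, S100a3, S100a4, S100a6, S100a7a, S100a8, S100a9, S100a10, S100a11 and S100b) were found among the 23951 genes of the deposited table. JunBΔep mice lack the AP-1 transcription factor JunB in cells that express keratin 5, through K5-Cre, so dermal, muscle, nerve and blood cells of the sample keep the gene. All mice were labelled C57Bl/6, aged 6 to 7 months, and the study describes the JunBΔep skin as lesional. The sources used here do not say whether the controls carried Cre, nor which body site was taken. Values are FPKM as the authors deposited them, a fragment count scaled by transcript length and by the library total, and the mice are named by the replicate numbers 0, 1 and 2 of their labels.

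S100 proteins are small calcium-binding proteins with a pair of EF-hand motifs that mostly act as dimers. Inside cells they bind partners such as annexins, myosin and ion channels when calcium rises. S100A8 and S100A9 form the heterodimer calprotectin, which is abundant in neutrophils, is induced in stressed epidermis, withholds metals from microbes and signals through TLR4 and RAGE once released. Most S100 genes lie together in the epidermal differentiation region of the genome, next to genes of the cornified envelope.

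Of the 10 genes, 9 lie on mouse chromosome 3 and S100b lies on chromosome 10 (build mm9, GENCODE vM1 annotation). A block of 7 genes, from S100a1 to S100a9, spans 184688 bases, and S100a11 and S100a10 follow further along the chromosome, 28792 bases apart. S100a8 (90472993 to 90473956, plus strand) and S100a9 (90496554 to 90499643, minus strand) are 22597 bases apart, and both have 3 exons. The 250 bases before the annotated start of each gene were searched on both strands for TGANTCA, the letters that AP-1 dimers bind, and for TTGCNNAA, letters that C/EBP factors bind. TGANTCA was found in 1 of the 10 windows, that of S100a11, and in 1343 of 22380 windows of protein-coding genes (6.00%). TTGCNNAA was found in 1 of the 10, that of S100a9, and in 9.16% of all windows. The windows of S100a8 and S100a9 are shown because they encode the subunits of calprotectin, and that of S100a11 because it alone held TGANTCA. The sequences are from mm9, 5′ to 3′ on the strand of the gene, and capitals mark the matched letters.
S100a8 (chr3:90472743-90472992, plus strand): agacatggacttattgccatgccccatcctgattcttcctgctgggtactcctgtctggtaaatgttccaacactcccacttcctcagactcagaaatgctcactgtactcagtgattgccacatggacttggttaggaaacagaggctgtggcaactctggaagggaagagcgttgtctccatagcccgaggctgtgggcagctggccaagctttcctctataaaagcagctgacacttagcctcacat
S100a9 (chr3:90499644-90499893, minus strand): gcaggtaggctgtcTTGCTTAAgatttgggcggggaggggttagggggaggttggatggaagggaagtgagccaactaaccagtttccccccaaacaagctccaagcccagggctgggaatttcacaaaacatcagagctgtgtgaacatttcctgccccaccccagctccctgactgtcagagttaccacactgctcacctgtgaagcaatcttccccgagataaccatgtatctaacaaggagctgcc
S100a11 (chr3:93324160-93324409, plus strand): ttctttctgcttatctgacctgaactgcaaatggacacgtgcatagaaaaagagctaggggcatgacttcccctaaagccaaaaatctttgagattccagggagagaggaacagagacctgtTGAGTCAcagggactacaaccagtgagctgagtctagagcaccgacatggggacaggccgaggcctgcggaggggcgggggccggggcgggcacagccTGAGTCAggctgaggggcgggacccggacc
The matches in S100a11 begin 128 and 30 bases before the gene start, and the match in S100a9 begins 236 bases before it. The S100a8 window held neither set of letters. A match of letters shows no binding, and the absence of one in these 250 bases leaves other parts of the gene unsearched.

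Junb, the deleted gene, measured 59.3, 72.4 and 56.9 FPKM with JunB +/+, against 129.6, 42.8 and 28.0 FPKM with the label JunBΔep (replicates 0, 1 and 2). By this gene replicate 0 goes against its label, in a tissue where many cells keep Junb. Its skeletal muscle markers, a list chosen with earlier results of these data known, summed to 2174 FPKM. That lay with the other JunBΔep mice (2021 and 4877 FPKM) and not with the controls (21567 FPKM or more). Fold changes of the S100 genes, and of other genes and lists that a result turns on, are given with and without JunBΔep replicate 0. The same library holds 6 of the 7 values in the table that are 0 where no other mouse is below 3 FPKM, among them Krt14, a keratin of basal epidermis, and S100a9. A 0 in such a place can be a failed estimate, so S100a9 is said only to be listed at 0. The FPKM values sum to between 481078 and 630363 per mouse, and read totals are unknown. All 10 keratinocyte markers were found, with summed levels of 6679 to 9784 FPKM across controls, against 6573 to 13781 FPKM in JunBΔep mice. Sample names fall into 2 number series, the lower holding control replicates 0 and 1 with JunBΔep replicate 0 and the higher holding control replicate 2 with JunBΔep replicates 1 and 2, and no source used here explains the numbers. The labels do not say which mice shared a litter. The p-values set each difference between the groups against the spread between these mice, and the main fit holds no term for litter.

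No S100 gene passed the test between the genotypes, given the spread between mice. In limma, a linear model fitted over the 17021 genes that averaged 0.1 FPKM or more, 0 of the 10 S100 genes had an adjusted p below 0.05 and 0 had an unadjusted p below 0.05, against 1.38% and 7.56% of all genes tested. All 235 genes called at the adjusted p were lower in JunBΔep and 0 were higher, whereas without JunBΔep replicate 0 there were 125 lower and 10 higher. With all mice, at the unadjusted p the shares were 1.43% higher and 6.13% lower. The lowest adjusted p among the 10 S100 genes was 0.722. The groups overlapped for all 10, whereas 14.8% of all genes tested did not overlap (5.62% higher and 9.16% lower in JunBΔep). Fold changes were positive for 6 and negative for 4, where 53.4% of all genes tested were positive, with a median of 0.27 on the log2(FPKM + 0.5) scale, beside 0.03 over all genes tested. Without JunBΔep replicate 0 they were positive for 4 and negative for 6, with a median of -0.08. Standard errors (SE) ran from 0.30 to 3.14 on the log2 scale, so the comparison does not show that the genotypes are alike.

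**Figure D1:**
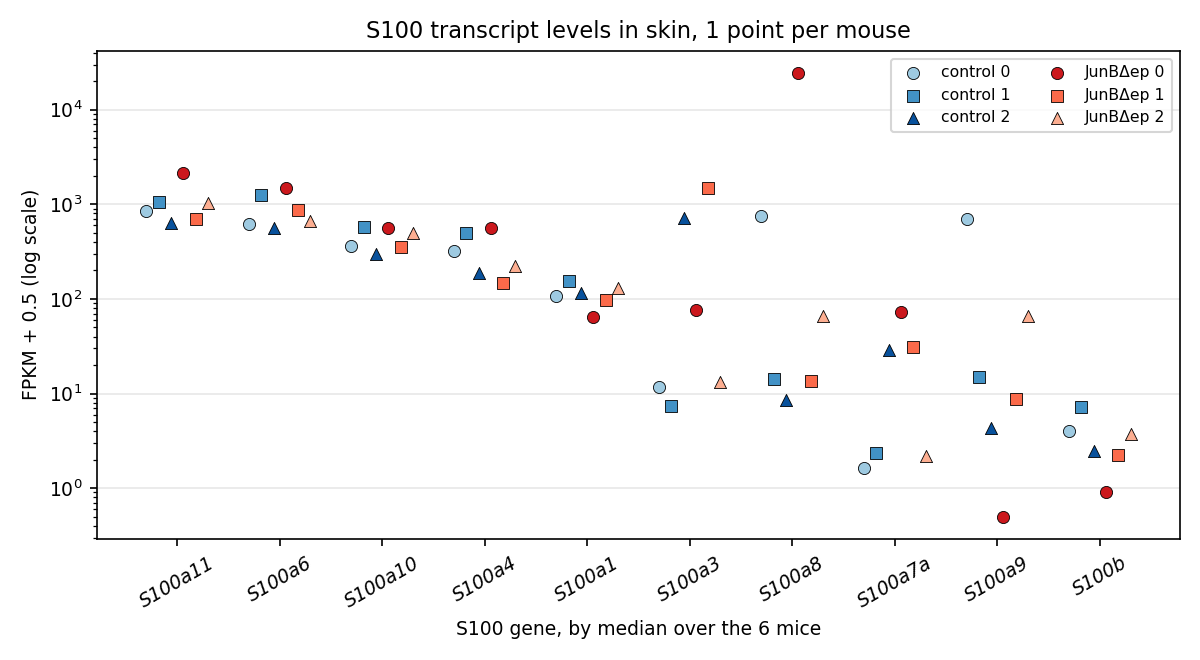
Each point is 1 mouse, with FPKM + 0.5 on a log scale on the vertical axis and the 10 S100 genes, ordered by their median, on the horizontal axis. S100a8 ranges from 8.15 to 24456 FPKM, while S100a10 stays between 297 and 578 FPKM, and the point for S100a9 at the bottom is the listed 0 of the library labelled JunBΔep replicate 0.

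By their median over the 6 mice the most abundant S100 transcripts were S100a11 (940 FPKM), S100a6 (764 FPKM), S100a10 (427 FPKM), S100a4 (273 FPKM) and S100a1 (112 FPKM). S100a6 exceeded S100a10, S100a10 exceeded S100a4 and S100a4 exceeded S100a1 in 6 of 6 mice, but S100a11 exceeded S100a6 in only 4 of 6. Below them S100a3 (44.5 FPKM), S100a8 (39.7 FPKM), S100a7a (15.0 FPKM) and S100a9 (11.3 FPKM) kept that order in at most 4 of 6 mice from one neighbour to the next. S100b was lowest, with a median of 2.60 FPKM. The 10 genes together took 0.476% to 0.772% of the FPKM sum in 5 mice and 4.66% in the library labelled JunBΔep replicate 0, where S100a8 was the most abundant transcript of all. Without S100a8 and S100a9, the share was 0.454% to 0.782% in all 6 mice.

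S100a8 and S100a9 encode the subunits of calprotectin. S100a8 measured 744, 13.9 and 8.15 FPKM in the 3 control mice (replicates 0, 1 and 2) against 24456, 13.01 and 65.6 FPKM with JunBΔep, listed in that order. S100a9 was at 698, 14.4 and 3.81 FPKM in controls, was listed at 0 in JunBΔep replicate 0, and was at 8.15 and 65.8 FPKM in replicates 1 and 2. One mouse of each group, replicate 0, thus stood far above its own group for S100a8, and the groups overlapped in the other mice. The log2 fold change of S100a8 was 2.63 (SE 3.14, limma adjusted p = 0.782), -0.60 without JunBΔep replicate 0, 4.65 without control replicate 0, and 1.42 without both replicates 0. With the number series of the sample names as a block it was 4.84 (SE 2.11, limma adjusted p = 0.557). For S100a9 it was -2.43 (SE 2.44, limma adjusted p = 0.742), a value that includes the listed 0. It was -0.57 with that 0 counted as missing, which leaves out JunBΔep replicate 0, -0.28 without control replicate 0, and 1.58 without both replicates 0. In the 5 mice where both were measured, S100a8 FPKM was 0.962 to 2.14 times S100a9 FPKM, while the level of S100a8 in those mice ranged from 8.15 to 744 FPKM. The ratio of the subunits thus varied far less than either level.

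Neutrophil markers differed between the 2 mice with the highest S100a8. Of the 12 neutrophil markers listed, 11 were found (Ly6g was not), and their summed level was 478, 12.7 and 183.9 FPKM across control replicates 0 to 2, against 606, 8.28 and 101.9 FPKM across JunBΔep replicates 0 to 2. In control replicate 2 and JunBΔep replicate 2 most of this sum was Ltf (175.2 and 86.5 FPKM), which encodes lactoferrin and is also made by glands. Mpo and Elane, granule enzymes of immature neutrophils, were at 32.0 and 35.7 FPKM in control replicate 0, while in the library labelled JunBΔep replicate 0 Mpo was at 0.0615 FPKM and Elane was listed at 0. Retnlg, Csf3r and Fpr1, genes of mature neutrophils, were at 418, 44.3 and 28.2 FPKM in that library and at 18.6, 3.70 and 0.800 FPKM in control replicate 0. S100a8 was 552 times Csf3r by FPKM in JunBΔep replicate 0, 201 times in control replicate 0 and 8.58 to 35.9 times in the other 4 mice. None of the 11 markers was called by limma (0 at an unadjusted p below 0.05), and their median log2 fold change was -0.0032 with all mice, -0.90 without JunBΔep replicate 0 and 0.73 with the number series of the sample names as a block. Liver and red cell markers summed to 3159 FPKM in control replicate 0 and to at most 485 FPKM in any other mouse. The part of neutrophil, liver or blood RNA in the level of S100a8 was not tested, and in whole skin more cells of a type cannot be told apart from more RNA per cell.

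**Figure D2:**
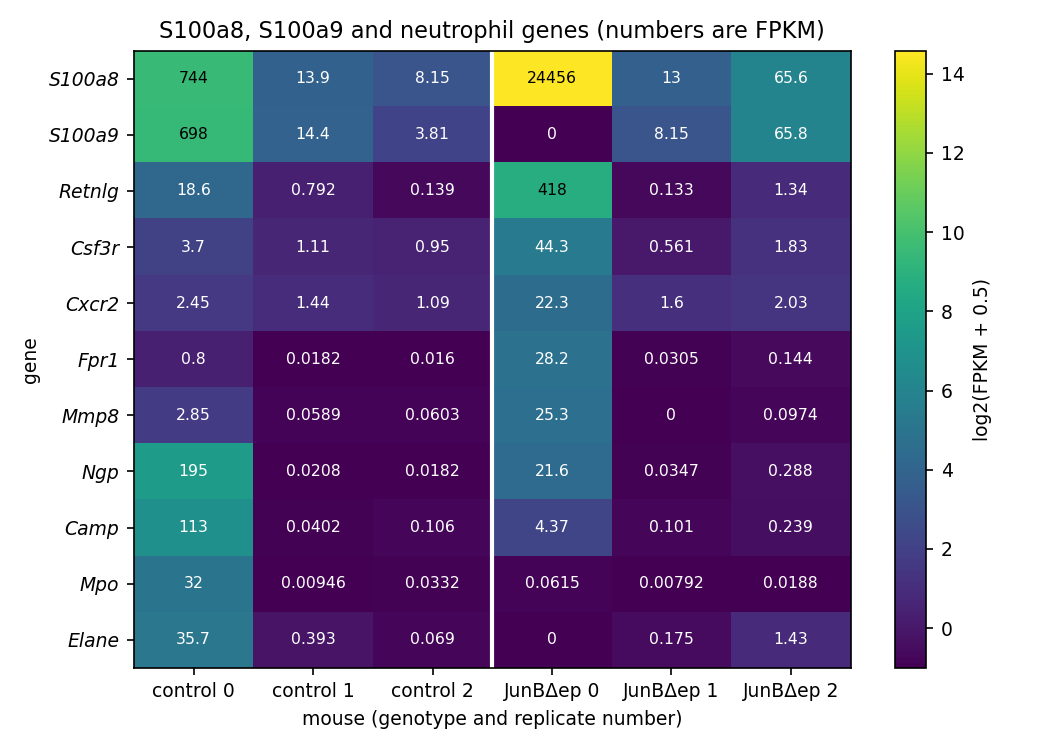
Rows are S100a8, S100a9 and 9 of the neutrophil markers, columns are the 6 mice, colour is log2(FPKM + 0.5) and the printed numbers are FPKM. S100a8 is high in both replicates 0, but Mpo is at 32.0 FPKM in the control and at 0.0615 FPKM in the JunBΔep library.

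Cytokines known to induce S100a8 and S100a9 in keratinocytes had their highest sum in the same JunBΔep library. Of 12 such genes, 11 could be tested, all 11 with a positive fold change and a median of 1.59 on the log2 scale. Il17a and Csf2 passed the filter of 0.1 FPKM only through JunBΔep replicate 0, and Il17f only through JunBΔep mice. The filter thus favoured a positive sign for these genes. Limma called none of the 11, and 1 had an unadjusted p below 0.05, beside 7.56% of all genes tested. Without JunBΔep replicate 0, 5 of the 9 genes that could be tested were positive, with a median of 0.13 and 2 at an unadjusted p below 0.05, beside 8.07% of all genes in that fit. With the number series of the sample names as a block, the median was 2.17, with 5 of 11 at an unadjusted p below 0.05, beside 8.95% of all genes in that fit, and 0 called. Summed, the 12 genes were at 28.6 to 39.2 FPKM across controls, against 934, 42.0 and 58.6 FPKM across JunBΔep replicates 0 to 2. The gene with the unadjusted p below 0.05 was Il1f6, which encodes IL-36α. It measured 1.62, 0.464 and 0.910 FPKM in controls, against 134, 5.43 and 10.7 FPKM with JunBΔep (log2 fold change 3.86, SE 1.16, limma adjusted p = 0.377, and 2.52, SE 0.45, adjusted p = 0.122 without replicate 0). Every JunBΔep mouse was thus above every control for Il1f6, as for 3 of the 11 tested inducers in all (Il1a, Il1f6 and Il1f9), beside 5.62% of all genes tested. For S100a8 that held in 1 of 3 JunBΔep mice. The receptors Tlr4 and Ager (RAGE) stayed low, at 0.660 to 2.97 FPKM and 1.31 to 3.71 FPKM, and Ager was higher in all 3 JunBΔep mice than in every control without passing the test (limma adjusted p = 0.719, and 0.551 without replicate 0).

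S100a3 and S100a7a were both high in control replicate 2 and JunBΔep replicate 1. S100a3 (chromosome 3, 90404137 to 90406624) encodes a cysteine-rich protein of the hair cuticle. It measured 11.3, 6.80 and 714 FPKM in the 3 control mice (replicates 0, 1 and 2) against 76.2, 1493 and 12.8 FPKM with JunBΔep, listed in that order. Control replicate 2 and JunBΔep replicate 1 stood far above the rest. The fold change of S100a3 was 1.54 on the log2 scale (SE 2.34, limma adjusted p = 0.822), and it ran from -0.30 without JunBΔep replicate 1 to 3.63 without control replicate 2. Without JunBΔep replicate 0 it was 1.84. S100a7a (90458224 to 90462052), the mouse relative of psoriasin, measured 1.15, 1.85 and 28.1 FPKM in controls, against 72.5, 30.8 and 1.68 FPKM with JunBΔep. The same pair of mice were high, and the library labelled JunBΔep replicate 0 was higher still. For S100a7a the log2 fold change came to 1.83 (SE 1.63, limma adjusted p = 0.725), 0.78 without JunBΔep replicate 0, 0.010 without both replicates 0 and 3.32 without JunBΔep replicate 2. Within the number series, S100a7a was 5.21 higher in JunBΔep on the log2 scale in the lower series and 1.79 lower in the higher series (difference -1.79), and S100a3 was 3.05 higher and 2.34 lower (difference -2.34).

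Hair genes were high in the same mice as S100a3. The 10 hair cuticle and cortex markers summed to 10.95, 13.2 and 1003 FPKM across the control mice, against 60.7, 1574 and 31.6 FPKM across the JunBΔep mice. Their median log2 fold change was 1.29 (1.92 without JunBΔep replicate 0, and 0.14 with the number series as a block), with 9 of 10 positive, 0 called by limma and 0 at an unadjusted p below 0.05. Padi3, the enzyme that citrullinates S100A3 in the cuticle, measured 0.0675, 0.0707 and 58.5 FPKM in controls, against 4.87, 109.9 and 1.28 FPKM with JunBΔep. The 3 genes nearest to S100a3 in pattern were Gm11595, Krtap4-9 and Krtap4-8, the latter 2 encoding keratin-associated proteins of the hair shaft. Their root mean square difference from S100a3, each gene centred on its mean log2 level, was 0.22 to 0.36, where S100a3 itself spread by 2.99. Gm11595 and Krtap4-9 were also the nearest without JunBΔep replicate 0. The nearest to S100a7a was Gjb6, which encodes connexin 30, at 0.38, and without JunBΔep replicate 0 it was Tyrp1, a melanocyte gene, at 0.11. Melanocyte markers, of which 8 were found, summed to 87.1 FPKM in control replicate 2 and 124.5 FPKM in JunBΔep replicate 1, against 10.5 to 18.5 FPKM in the other 4 mice. The stage of the hair cycle is not given in the labels, and the part of hair follicle content in these values was not tested.

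**Figure D3:**
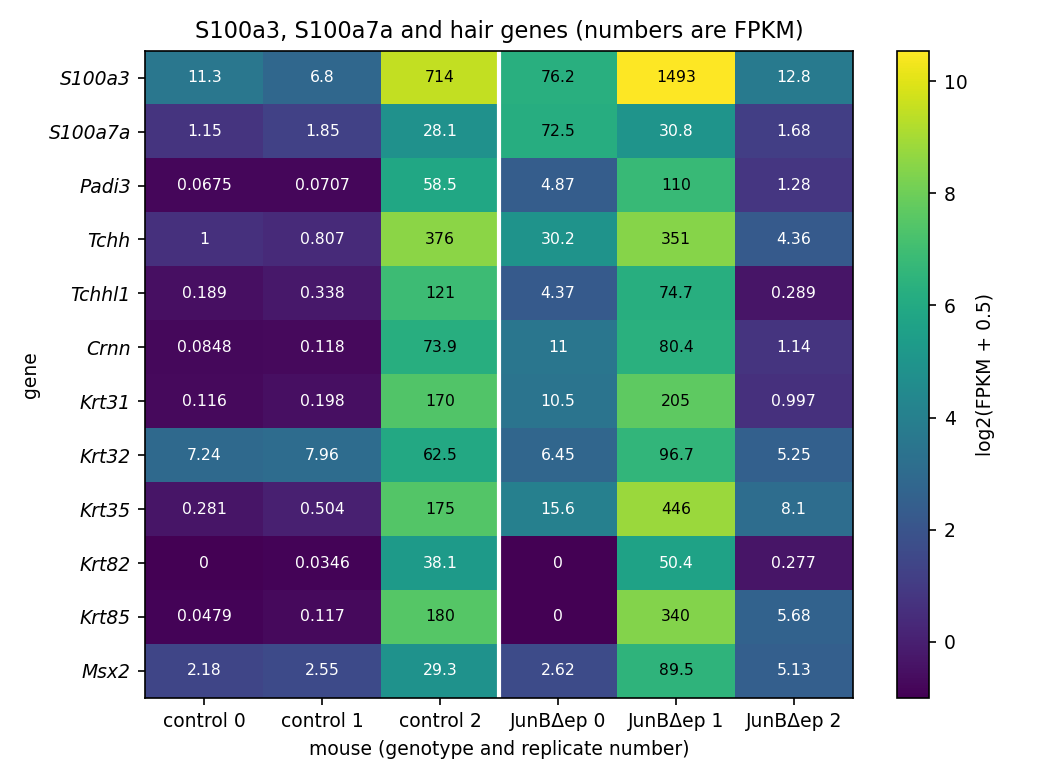
Rows are S100a3, S100a7a, Padi3, 3 S100-fused genes and 6 hair markers, columns are the 6 mice, colour is log2(FPKM + 0.5) and the printed numbers are FPKM. Control replicate 2 and JunBΔep replicate 1 are high in every row, while JunBΔep replicate 0 is higher than both only for S100a7a.

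S100a10 and S100a11 bind annexins, and S100a10 had the narrowest range of the 10 S100 genes, 0.96 on the log2 scale, against 1.73 for S100a11. S100a10 (chromosome 3, 93359002 to 93368565), which joins annexin A2 in a tetramer at the plasma membrane, measured 360, 578 and 297 FPKM in controls, against 563, 357 and 493 FPKM with JunBΔep. On the log2 scale S100a10 differed by 0.23 (SE 0.33, limma adjusted p = 0.815), and leaving out single mice moved it between 0.020 and 0.50, with 0.085 without JunBΔep replicate 0. The groups overlapped, with the highest mouse a control. Anxa2 measured 972, 1379 and 697 FPKM in controls, against 1872, 759 and 1043 FPKM with JunBΔep. The ratio of S100a10 to Anxa2 was 0.371 to 0.426 in controls and 0.301, 0.470 and 0.473 in the JunBΔep mice. S100a11 (93324410 to 93330209), a partner of annexin A1 and a component of the cornified envelope, measured 847, 1045 and 640 FPKM in controls, against 2120, 704 and 1033 FPKM with JunBΔep. Only the library labelled JunBΔep replicate 0 exceeded every control. On the log2 scale S100a11 differed by 0.48 (SE 0.47, limma adjusted p = 0.736) and 0.044 without that library, and by 0.79 (SE 0.35, adjusted p = 0.557) with the number series as a block. Anxa1 measured 510, 630 and 423 FPKM in controls, against 2041, 509 and 524 FPKM with JunBΔep, so its high mouse was the same one. S100a11 was 1.04 times Anxa1 in that library and 1.38 to 1.97 times in the other 5.

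**Figure D4:**
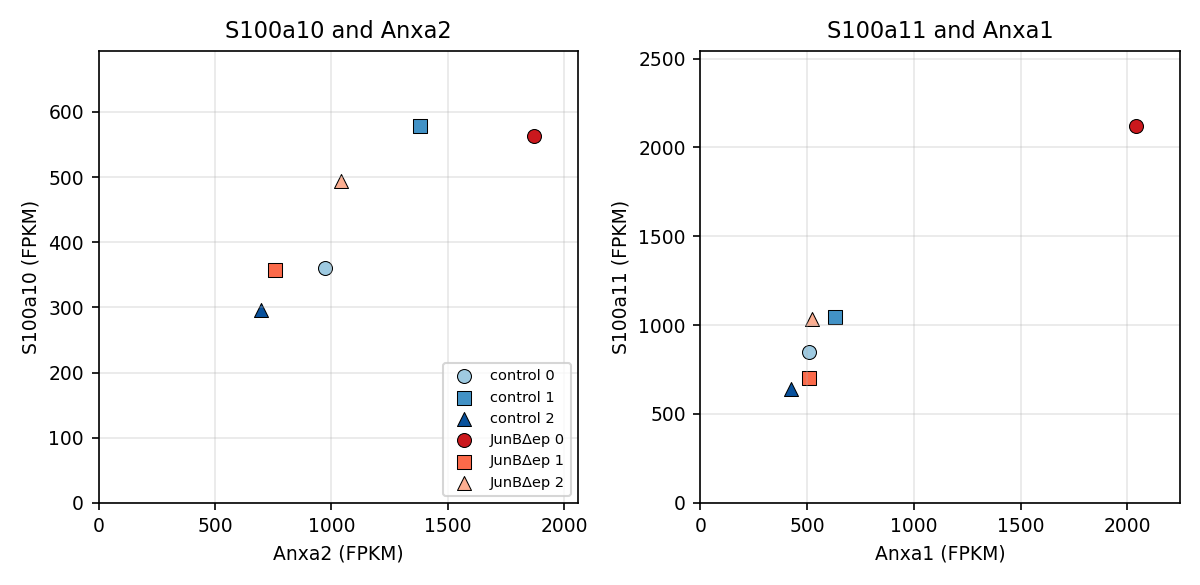
Each point is 1 mouse, with the annexin on the horizontal and the S100 partner on the vertical axis, both in FPKM on linear axes from 0. The library labelled JunBΔep replicate 0 is alone at 2041 FPKM of Anxa1 and 2120 FPKM of S100a11, while S100a10 reaches 563 FPKM there and 578 FPKM in control replicate 1.

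S100a4 and S100a6 are transcribed by fibroblasts, immune cells and proliferating epithelium. S100a4 (chromosome 3, 90407692 to 90409967), which binds non-muscle myosin and is linked to cell motility, measured 324, 496 and 186 FPKM in controls, against 559, 146 and 222 FPKM with JunBΔep. Its log2 fold change was -0.24 (SE 0.59, limma adjusted p = 0.896), and -0.78 without JunBΔep replicate 0. The sign turned positive without control replicate 1 (0.10) or JunBΔep replicate 1 (0.19). With the number series as a block the fold change was 0.22 (SE 0.32, limma adjusted p = 0.786). S100a6 (90416816 to 90418336), known as calcyclin, measured 615, 1268 and 559 FPKM in controls, against 1474, 865 and 662 FPKM with JunBΔep. Its log2 fold change was 0.32 (SE 0.46, limma adjusted p = 0.814) and -0.0030 without JunBΔep replicate 0. For both genes control replicate 1 and JunBΔep replicate 0 were the highest mice. S100a6 was 5.92 times S100a4 in JunBΔep replicate 1 and 1.90 to 3.01 times in the other 5. The gene nearest to S100a4 in pattern was Fos (root mean square difference 0.15 on the log2 scale, where S100a4 spread by 0.71), and without JunBΔep replicate 0 it was Skint11 (0.07, where S100a4 spread by 0.62). For S100a6 it was Mt3, a metallothionein (0.11, where S100a6 spread by 0.53), which without JunBΔep replicate 0 came second. The 10 dermal fibroblast markers had their highest sum, 2699 FPKM, in control replicate 0, and single markers peaked in different mice. Of the partners, Myh9 (non-muscle myosin) was higher in all 3 JunBΔep mice than in every control, at 49.3 to 70.4 FPKM against 31.4 to 46.1 FPKM. That held for 3 of 16 tested receptors and partners (Ager, Myh9 and Stk38), beside 5.62% of all genes tested. Myh9 did not pass the test (limma adjusted p = 0.720, and 0.796 without replicate 0).

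S100a1 and S100b are best known from muscle and nerve. S100a1 (chromosome 3, 90314956 to 90318314), which binds the ryanodine receptor of muscle, measured 107.4, 155.8 and 116.1 FPKM in controls, against 63.5, 96.7 and 130.4 FPKM with JunBΔep. On the log2 scale S100a1 differed by -0.42 (SE 0.30, limma adjusted p = 0.722), between -0.67 and -0.15 when single mice were left out, the latter without JunBΔep replicate 0. JunBΔep replicates 0 and 1 were below every control, and replicate 2 was above control replicates 0 and 2. Skeletal muscle markers, in contrast, were lower in all 3 JunBΔep mice than in every control for 12 of 12 genes, beside 9.16% of all genes tested. The list was chosen with earlier results of these data known and reads a single tissue, so the 12 are not separate results. Limma called 8 of the 12, beside 1.38% of all genes tested. Without JunBΔep replicate 0 it called 2 of the 12, beside 135 of 16912 genes in that fit. The summed level of the 12 was 21567 to 28592 FPKM across controls, against 2021 to 4877 FPKM in JunBΔep mice. Their median log2 fold change was -3.22 (-2.88 without JunBΔep replicate 0). Ryr1, the ryanodine receptor itself, fell from 42.0 ± 4.89 FPKM (SD, n = 3) to 6.45 ± 2.25 FPKM (SD, n = 3), with a log2 fold change of -2.66 (SE 0.27, limma adjusted p = 0.0187). It was -2.68 (adjusted p = 0.0440) without JunBΔep replicate 0 and -2.63 (SE 0.31, adjusted p = 0.0661) with the number series of the sample names as a block. The ratio of S100a1 to Ryr1 was 2.26 to 4.02 in controls and 9.92 to 22.9 in JunBΔep mice. With the number series of the sample names as a block, 0 of the 12 muscle markers were called, while the median was -3.29. In that fit 12 of 12 were lower with an unadjusted p below 0.05, beside 8.95% of all genes in either direction. The count of genes called over the whole table, 235, was 0 without control replicate 0, 1 or 2 and without JunBΔep replicate 1. It was 135 without JunBΔep replicate 0, and 0 with that block. The amount of muscle in each sample was not measured, and its part in these values was not tested.

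S100b (chromosome 10, 75716598 to 75723904), a marker of Schwann cells and other glia, measured 3.48, 6.74 and 1.95 FPKM in controls, against 0.417, 1.74 and 3.25 FPKM with JunBΔep. The lowest mouse was the library labelled JunBΔep replicate 0, and the other mice overlapped. The log2 fold change was -1.07 (SE 0.63, limma adjusted p = 0.722) and -0.51 without that library. Schwann cell markers moved with it, with summed levels of 237, 290 and 164 FPKM across the controls, against 86.6, 129 and 280 FPKM across the JunBΔep mice, and 0 of 10 called by limma (0 at an unadjusted p below 0.05). Their median log2 fold change was -0.62, and -0.21 without JunBΔep replicate 0. S100b overlaps Dip2a on the opposite strand, and no source used here says whether counting used the strand of the libraries.

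**Figure D5:**
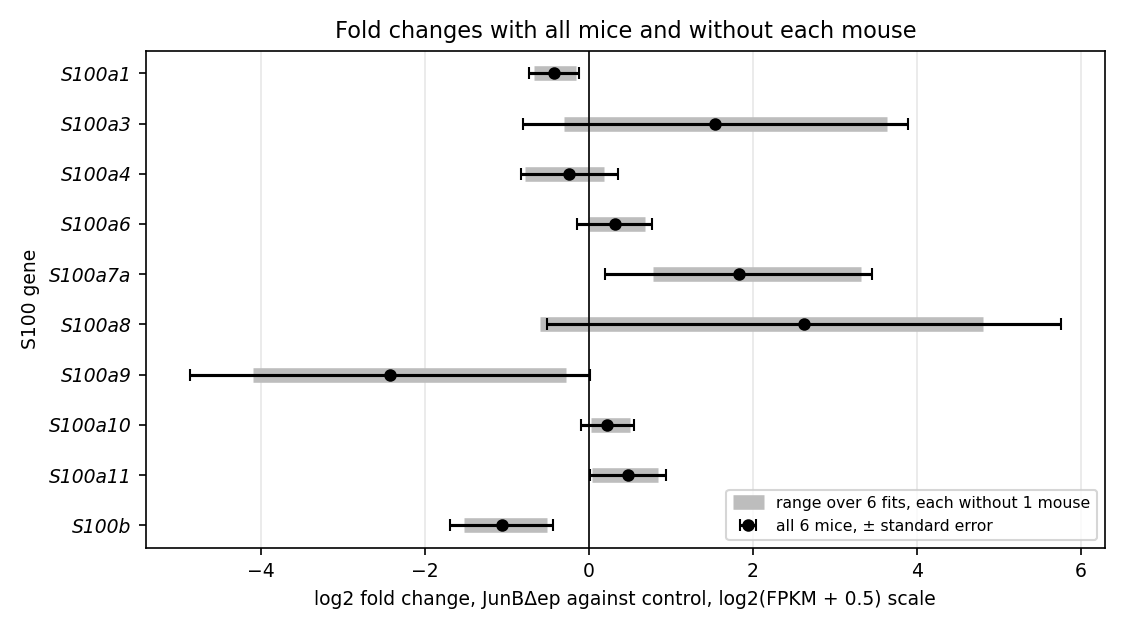
Points are log2 fold changes of JunBΔep against control on the log2(FPKM + 0.5) scale with their standard errors from limma, and grey bars span the 6 fits that each leave out 1 mouse. The grey bars of S100a3, S100a4, S100a6 and S100a8 cross 0, and that of S100a10, from 0.020 to 0.50, is among the shortest. That of S100a9 lies below 0, but only its fit without JunBΔep replicate 0 (-0.57) leaves out the listed 0. Without both replicates 0, a fit not drawn, S100a9 was at 1.58.

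The library labelled JunBΔep replicate 0 held the highest value of the 6 mice for 5 of the 10 S100 genes and the lowest for 3, of which S100a9 is the listed 0, where 29.7% and 32.0% of all genes tested had their highest and lowest value there. It lay above every control for 5 of the 10 (S100a4, S100a6, S100a7a, S100a8 and S100a11) and below every control for 3 (S100a1, S100b and, by its listed 0, S100a9), beside 37.4% and 39.3% of all genes tested. JunBΔep replicate 1 lay above every control for 2 (S100a3 and S100a7a) and below for 3 (S100a1, S100a4 and S100b), beside 34.5% and 33.1% of all genes tested. JunBΔep replicate 2 lay above or below every control for 0 of the 10, beside 25.1% and 21.3% of all genes tested. Within the number series of the sample names, the difference between the genotypes had the same sign in both series for 5 genes (S100a1, S100a6, S100a8, S100a10 and S100a11) and opposite signs for the other 5. For S100a8 it was 7.88 in the lower series and 1.79 in the higher on the log2 scale, and for S100a11 it was 1.17 and 0.41. Each series has only 1 mouse of one genotype, so no test was made within a series. In the fit with the series as a block over all 6 mice, 0 of the 10 genes were called and 0 had an unadjusted p below 0.05.

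Other genes of the family and the S100-fused genes were read from lists. Of 8 further S100 genes, 7 were found and 6 could be tested, and limma called none (0 at an unadjusted p below 0.05). Their median log2 fold change was 0.25 (0.11 without JunBΔep replicate 0), with 3 positive and 3 negative. With the number series as a block it was 0.40, and 1, S100a2, had an unadjusted p below 0.05, beside 8.95% of all genes. S100a14 (chromosome 3, 90330778 to 90332755), a gene of stratified epithelium, measured 354, 416 and 376 FPKM in controls, against 1150, 666 and 348 FPKM with JunBΔep (log2 fold change 0.76, SE 0.44, limma adjusted p = 0.722, and 0.34 without replicate 0). S100a16 measured 226, 320 and 249 FPKM in controls, against 544, 455 and 238 FPKM with JunBΔep. For both, JunBΔep replicates 0 and 1 were above every control and replicate 2 was not. S100a2, an epidermal gene, reached 3.69 FPKM in JunBΔep replicate 0, 0.512 FPKM in JunBΔep replicate 1 and at most 0.229 FPKM in the others. S100-fused proteins carry an S100 domain before a long repeat region and build the cornified envelope and the hair follicle. Of 7 such genes, 6 were found (Flg was not), with 5 positive, 0 called by limma and 0 at an unadjusted p below 0.05. Their median log2 fold change was 1.31, 0.54 without JunBΔep replicate 0 and 0.64 with the number series as a block. Tchh, Tchhl1 and Crnn were high in the same mice as S100a3, as Tchh shows with 376 FPKM in control replicate 2, 351 FPKM in JunBΔep replicate 1 and 30.2 FPKM or less elsewhere. Rptn, which encodes repetin, instead reached 392 FPKM in the library labelled JunBΔep replicate 0 and was at 1.42 to 4.26 FPKM in the other 5, and Flg2 was at 3.08 FPKM there and 68.2 to 139.1 FPKM elsewhere. Of the 16 tested receptors and binding partners of S100 proteins, limma called 1, Ryr1, beside 1.38% of all genes tested. With the number series as a block it called 0. The median log2 fold change was 0.07 (-0.06 without JunBΔep replicate 0 and 0.19 with that block). Anxa6, which S100A1 and S100A6 bind, was lower in all 3 JunBΔep mice, at 31.6 to 66.1 FPKM against 77.6 to 103.0 FPKM. That held for 2 of the 16 (Anxa6 and Ryr1), beside 9.16% of all genes tested. Anxa6 did not pass the test (limma adjusted p = 0.370, and 0.537 without replicate 0).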

How the data were processed

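Poly(A) RNA of whole skin from 3 JunBΔep and 3 control mice was sequenced with a kit that keeps the strand. The authors ran the nextpresso pipeline, aligning reads to mm9 with TopHat2 2.0.10, and the submitters' processing notes also name Bowtie 1.0.0, SAMtools 0.1.19, FastQC and Cufflinks, the last without a version. FPKM per gene was deposited by the authors for each mouse. The sources used here name these tools but do not say which of them gave the FPKM, and the authors' test, DESeq2 on counts, could not be repeated on FPKM.

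Values were transformed to log2(FPKM + 0.5), which understates the change of low genes, and tested in limma 3.58.1, under R 4.3.3 (intensity trend, two-sided, Benjamini-Hochberg over the 17021 genes that averaged 0.1 FPKM or more, threshold 0.05). The procedure was tested on simulated data. An exact permutation test of 3 mice against 3 cannot go below p = 0.1. Below 0.15 FPKM, 14.2% to 17.4% of genes share 1 ratio to control replicate 0 (to 3 decimals on the log2 scale), which puts the scaling totals of the other libraries at 0.955 to 1.14 times its own. Depth is otherwise unknown.

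The genes named are the 10 S100 genes, Junb, genes of hand-written lists and, for S100 genes with a log2 range of at least 1, the 3 genes with the nearest pattern. The members and lists were chosen with earlier results of these data known. Dip2a was named because it overlaps S100b. Positions and the 250-base windows are from the mm9 genome with GENCODE vM1. Replicate numbers were not used to pair the mice in the main fit. Deviations of same-numbered mice correlated at 0.12, -0.228 and -0.426, which with 3 mice per group cannot exclude pairing. Alternatives were 2 other pseudocounts, 2 other filters, 3 other scalings, limma without trend or robust, the replicate number or the sample-name series as a block, mice left out, lone values of 0 as missing, and an adjusted p of 0.1. List values and nearest patterns without JunBΔep replicate 0, and list values with the name series as a block, were added after the data were seen. Figures were drawn with matplotlib 3.10.9 in Python 3.11.15. Protein sequences were not used here.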

Additional observations from a re-analysis of the deposited data

How the results depend on the processing

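No S100 gene was called under any alternative, and the lowest adjusted p of limma over all of them was 0.285, without JunBΔep replicate 2. Of 190 recomputed fold changes of the 10 genes, 182 kept their direction and 8 reversed, in S100a3, S100a4, S100a6, S100a8 and S100a9. Leaving out single mice gave -0.30 to 3.63 for S100a3, -0.78 to 0.19 for S100a4 (0.10 without control replicate 1), -0.0030 to 0.69 for S100a6 and -0.60 to 4.81 for S100a8. A block on the number series of the sample names turned S100a4 to 0.22. Without both replicates 0, S100a6 was at -0.15 and S100a9 at 1.58. The count of genes called over the whole table was 235. It was 0 with the replicate block, with a block on the name series and without both replicates 0, and from 0 to 254 without single mice (0 without each control mouse or JunBΔep replicate 1). The cause was not tested. The replicate block changed no call on an S100 gene. With it the fold change of S100a8 stayed at 2.63 and its SE fell from 3.14 to 1.03 (limma adjusted p = 0.817). The SE of S100a3 instead rose from 2.34 to 2.66. Read depth is unknown, so no detection limit is given.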

Other observations

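Markers of further cell types were read for the same 6 mice. The 8 adipocyte markers summed to 2965, 5848 and 1905 FPKM across control replicates 0 to 2, against 71.8, 2958 and 15035 FPKM across JunBΔep replicates 0 to 2, and limma called none (0 at an unadjusted p below 0.05, median log2 fold change -1.80, and 0.65 without JunBΔep replicate 0). Adipoq, which encodes adiponectin, measured 1.61 FPKM in the library labelled JunBΔep replicate 0 and at 174.5 to 936 FPKM in the other 5. S100b was lowest in that library as well, whereas S100a10 and S100a11 were not. The 9 macrophage and dendritic cell markers found summed to 282 to 543 FPKM in controls. In the JunBΔep mice they summed to 673, 109 and 264 FPKM. All 9 fold changes were negative and none was called by limma. Of the 9, 1, Mgl2, had an unadjusted p below 0.05, beside 7.56% of all genes tested. The median log2 fold change was -0.63. Without JunBΔep replicate 0 it was -0.93, with all 9 still negative and none at an unadjusted p below 0.05. With the number series as a block it was -0.39, and 3 of the 9 were positive. Mgl2 ranged from 29.7 to 50.1 FPKM across controls, against 2.75 to 26.6 FPKM across JunBΔep mice. For the dermal fibroblast markers the median log2 fold change was -0.52, with 0 of 10 called by limma. Of the 10, 1, Dpt, had an unadjusted p below 0.05, beside 7.56% of all genes tested. Without JunBΔep replicate 0 the median was -0.86, with 3 at an unadjusted p below 0.05, beside 8.07% of all genes in that fit. The keratinocyte markers had a median of 0.17 (-0.14 without JunBΔep replicate 0 and 0.37 with the number series as a block). The melanocyte markers had a median of 0.19 (0.56 without JunBΔep replicate 0 and -0.46 with that block), and the liver and blood markers -2.18. In these lists limma called 0 of 10, 0 of 8 and 0 of 8. With all mice none of these 26 genes or of the 10 Schwann cell markers had an unadjusted p below 0.05.

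The genes nearest to S100a8 in pattern over the 6 mice were Retnlg, Lcn2 and Fetub, at root mean square differences of 0.85, 1.71 and 1.84 on the log2 scale, where S100a8 itself spread by 4.09. Without JunBΔep replicate 0, a comparison added after the values were seen, they were Apoc3, Elane and S100a9, at 0.39 to 0.42, with S100a8 spreading by 2.36. Apoc3, a liver gene, was at 80.4 FPKM in control replicate 0 and at most 8.66 FPKM in the others. The nearest to S100b was Ppp1r14a (0.09, where S100b spread by 0.92), to S100a11 Ifitm2 (0.09, where S100a11 spread by 0.56) and to S100a1 Mtg1 (0.05, where S100a1 spread by 0.40). Without JunBΔep replicate 0 they were Spon2 (0.07), Rhbdl1 (0.04) and Mageh1 (0.03) in the same order, so these neighbours depend on that library. These are the closest of 13741 candidate genes over few mice, and no test was made.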
